A study of Macaca fascicularis with 16 samples.

Results

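Chemokines and interleukins are secreted proteins that immune, stromal and epithelial cells use to signal to each other, and this account follows the genes for these proteins and for their receptors in the mammary gland of macaques given menopausal hormone therapy. The genes were chosen by name alone: a probe set was included if the 1 gene symbol it carries in the array annotation has the form of a CC, CXC or CX3C chemokine, a chemokine receptor, an atypical chemokine receptor, an interleukin or an interleukin receptor, and 1 interleukin receptor gene was left out. This gave 181 of the 52865 probe sets on the array, for 115 genes. The name rule also caught IL4I1, an amino acid oxidase induced by an interleukin, which is counted among the 115 but belongs to neither family.

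The tissue was mammary gland from 16 female cynomolgus macaques (Macaca fascicularis), all postmenopausal and all ovariectomized, so that the control animals too lacked ovarian hormones. Each of the 4 groups held 4 animals, with 1 Affymetrix rhesus macaque array per animal. The control group received no hormone. A second group received conjugated equine estrogens (CEE), a mixture of estrogens prepared from the urine of mares, at 0.042 mg/kg; another received the same dose of CEE together with medroxyprogesterone acetate (MPA), a synthetic progestin, at 0.167 mg/kg; and the last received tibolone, a synthetic steroid whose metabolites have estrogenic, progestogenic and androgenic activity, at 0.2 mg/kg. The labels name no transgene, cell line or pooling of animals, and the length of treatment is not given in the sources used here.

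Chemokines direct the migration of leukocytes by binding receptors coupled to G proteins. The CC ligands act mostly on monocytes, eosinophils, dendritic cells and lymphocytes, the CXC ligands mostly on neutrophils and lymphocytes, and the atypical receptors bind chemokines without the usual signalling and so clear or present them. Interleukins act through receptor chains that mostly signal by JAK kinases and STAT factors, except for the interleukin-1 and interleukin-17 families, whose receptors lead to NF-κB. In the mammary gland macrophages, eosinophils and lymphocytes lie among the ducts, and fibroblasts and endothelial cells of the stroma are known sources of chemokines such as CXCL12 and CCL2.

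Values are linear signals that the authors scaled to the same trimmed mean on every array. A signal is given for each animal, or as a mean ± SD over the 4 animals of a group, and it is not compared between probe sets, since each has its own brightness. Differences are on the scale of log2(signal + 16), which understates the change of dim genes, and their errors are standard errors from 1 limma model of all 16 arrays. Probe sets entered the tests when at least 4 of the 16 arrays read above 60.2, which is the median signal of the whole table. A difference was called when its p, adjusted by Benjamini and Hochberg over all 28716 tested probe sets, was under 0.05.

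By that filter 101 of the 181 probe sets were tested, covering 68 of the 115 genes. The tested genes were 14 of 20 CC ligands, 9 of 10 CXC and CX3C ligands, 6 of 12 chemokine receptors, 2 of 3 atypical receptors, 15 of 36 interleukin ligands, 21 of 33 interleukin receptors (with the secreted antagonist IL1RN counted there) and IL4I1. The other 47 genes had no tested probe set. These included the neutrophil attractant CXCL8, the monocyte receptors CCR1, CCR2 and CX3CR1, the eosinophil receptor CCR3, the high-affinity IL-2 receptor chain IL2RA, IL1A, IL18, the IL-33 receptor IL1RL1, and the T cell products IL4, IL5, IL13 and IL17A. Of the 80 untested probe sets, 62 were never above 60.2 on any array and 18 were above it on 1 to 3 arrays. For these genes no statement on the treatments is made.

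Several facts of the arrays bear on the results. Bacterial spike-in probe sets split the arrays into a low set of 6 (2 control, 2 CEE and 2 CEE+MPA) and a high set of 10 (2 of each of those groups and all 4 tibolone arrays), so for tibolone against any other group the spike-in sets and the treatment are partly confounded. Skeletal muscle genes were high on control replicate 1, CEE+MPA replicate 1 and tibolone replicates 2 and 3, where the mean of 7 such genes, each centred on its mean over all arrays, was 2.95, 1.51, 2.71 and 1.78. Tibolone replicate 3 also stood apart for lymphocyte genes, described below. The mammary label was borne by the luminal epithelial markers: KRT19 lay at 10401 to 24356, EPCAM at 963 to 3548, GATA3 at 5035 to 9372 and ELF5, a factor of milk-producing cells, at 3127 to 16004 over the 16 arrays. As these are whole tissue samples, fewer cells of a type and less RNA per cell cannot be told apart.

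Of the genes tested, 12 chemokine, interleukin and receptor genes were lower and 1 higher in the animals given CEE with MPA, while neither CEE alone nor tibolone gave a called difference from control. Against control, CEE+MPA gave 13 lower and 2 higher probe sets among the 101 tested, which stand for 13 genes; over all tested probe sets 6.33% were called, 4.38% as lower and 1.95% as higher. The lower genes were the chemokines CXCL12, CCL2, CCL11 and CCL27, the atypical receptors ACKR1 and ACKR3, the interleukins IL33, IL34 and IL1B, and the receptors IL20RB, IL6R and IL13RA1. IL2 was the 1 gene called higher, by 2 probe sets. The median difference of the 101 probe sets was -0.24, beside -0.01 over all tested probe sets. By role, calls were 3 lower of 22 CC ligand probe sets, 1 lower of 14 CXC and CX3C, 2 lower of 3 atypical receptor, 0 of 6 chemokine receptor, 3 lower and 2 higher of 21 interleukin, and 4 lower of 34 interleukin receptor probe sets. The unadjusted p was under 0.05 for 35 of the 101, beside 24.0% of all.

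CEE alone against control called 0 of the 101 by limma, with 0.0731% called over all tested probe sets; 19 of them had an unadjusted p under 0.05, beside 12.4% of all, and their median difference was -0.18, beside 0.00 over all tested probe sets. Tibolone against control also called 0 of the 101, with 0.0244% called over all; 6 had an unadjusted p under 0.05, beside 5.40% of all, and the median was 0.01. CEE+MPA against CEE called 0 (0.0209% over all) with 12 at an unadjusted p under 0.05 (7.72% of all). Tibolone against CEE called 0 (0.00696% over all) with 20 at an unadjusted p under 0.05 (11.9% of all). Tibolone against CEE+MPA called 13 probe sets of 12 genes, 11 higher and 2 lower with tibolone, where 6.34% were called over all, 3.78% as higher and 2.56% as lower; the unadjusted p was under 0.05 for 36, beside 25.1% of all, and the median was 0.31, beside 0.04 over all. The moderated F test across the 4 groups called 8 probe sets of 7 genes (CXCL12, CCL2, IL2, CCL11, IL33, IL20RB and IL12RB2), with 3.02% called over all; 36 had an unadjusted p under 0.05, beside 21.1% of all. The comparisons share arrays with each other and are not independent.

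A count of probe sets whose 4 and 4 animals did not overlap needs no model. CEE+MPA lay wholly below control for 23 probe sets, where 9.41% of all tested probe sets did, and wholly above for 3, where 6.65% did, out of 16.1% in either direction. CEE lay wholly below control for 13 probe sets and above for 3, 16 in all, where 8.95% of all did not overlap. Tibolone lay wholly apart from control for 2, CCR6 and IL37, where 3.43% of all did, so the share of these genes was near that of the array. CEE+MPA lay wholly below CEE for 6, with 5.07% of all not overlapping. Tibolone lay apart from CEE for 5, with 5.43% of all, and from CEE+MPA for 19, with 16 above (7.56% of all) and 3 below (5.57% of all), out of 13.1% in either direction.

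**Figure D1:**
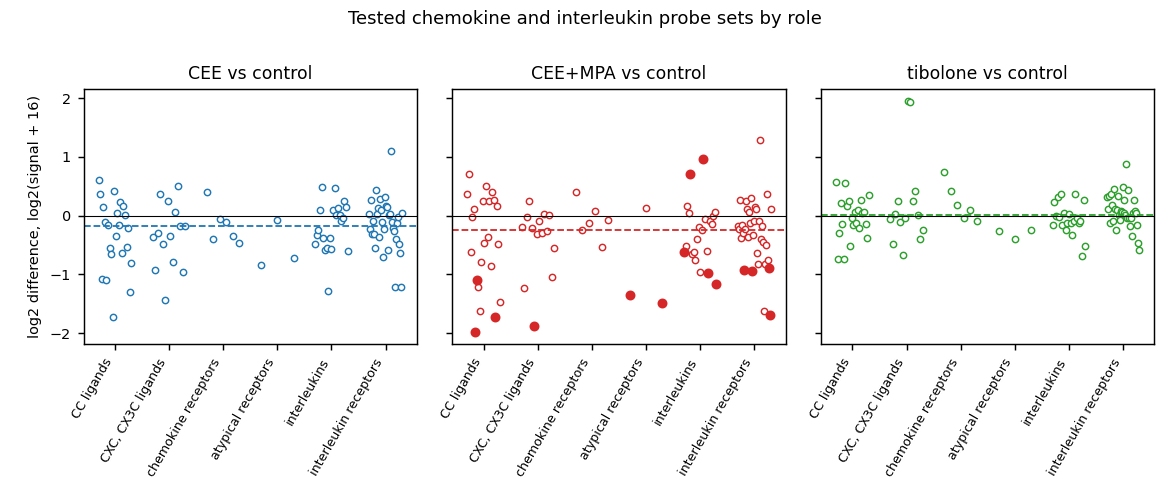
Each point is a tested probe set, placed by the role of its gene (x axis) and its log2 difference from control on log2(signal + 16) (y axis), for CEE, CEE+MPA and tibolone (4 animals each against 4 controls); IL4I1 is not drawn. Filled points passed the adjusted p of 0.05, and the dashed line is the median of the 101 probe sets, at -0.18, -0.24 and 0.01; the 15 filled points all lie in the CEE+MPA panel.

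CXCL12 was the 1 CXC ligand called. It is made by stromal cells and retains and attracts cells that carry CXCR4. Its signals in the 4 control animals were 1428, 1530.0, 1769.7 and 1760.4. With CEE they were 753, 505, 585 and 528, and with CEE+MPA 593, 248, 485 and 469. All 8 animals that received CEE, with or without MPA, lay below all 4 control animals. With tibolone the signals were 785, 1129, 1625 and 711. Of the tibolone animals 1 lay within the control range and 3 below it. CEE+MPA was 3.67-fold below control, a difference of -1.88 ± 0.26 with an adjusted p of 0.00304. CEE alone differed from control by -1.44 ± 0.26 (95% interval -2.00 to -0.88), with an adjusted p of 0.0557, the lowest of any chemokine or interleukin in that comparison and just outside the threshold. Tibolone differed from control by -0.67 ± 0.26 with an adjusted p of 0.901. A second tested probe set for CXCL12 was dim, at 32.3 to 98.0 over all arrays, and gave -0.32 ± 0.19 for CEE+MPA against control.

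The remaining CXC and CX3C ligands gave no call in any comparison with control. CXCL9, CXCL10 and CXCL11, which bind CXCR3 on activated T cells and are induced by interferon, lie side by side in the cynomolgus genome. CXCL9 was dim at 78.2 ± 55.2 in control and 21.6 ± 13.4 with CEE+MPA, and differed by -1.23 ± 0.42 with an adjusted p of 0.0864. CXCL10 differed by -0.03 ± 0.54 in the same comparison and CXCL11 by 0.03 ± 0.14. CXCL10 had a wide spread within groups, from 225 to 1165 in the control animals. CXCL16, a membrane-bound ligand of CXCR6, stood at 140.1 ± 36.2 in control and 89.0 ± 10.5 with CEE+MPA, a difference of -0.54 ± 0.19 (adjusted p = 0.09). CX3CL1, a tethered chemokine of endothelium and epithelium, was dim, at 22.2 to 94.9 over all arrays.

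CCL2, the main attractant of monocytes, had the largest fall of the called CC ligands. Control signals were 1289, 708, 436 and 948, and CEE+MPA signals were 178, 328, 134 and 151. The highest CEE+MPA animal lay below the lowest control animal. CEE animals had 435, 524, 292 and 244 and tibolone animals 504, 546, 367 and 456, and both groups overlapped control. CEE+MPA was 3.95-fold below control, at -1.98 ± 0.32 (adjusted p = 0.00442). The differences from control were -1.10 ± 0.32 for CEE (adjusted p = 0.215) and -0.74 ± 0.32 for tibolone (adjusted p = 0.913).

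CCL11, or eotaxin, attracts eosinophils and is encoded near CCL2, in 1 neighbourhood that also holds CCL8, CCL13 and CCL1. Its signals were 221, 108, 117 and 110.3 in control and 89.7, 61.2, 41.2 and 33.7 with CEE+MPA, with no overlap. CEE animals, at 87.5, 103, 135 and 151, overlapped control, and tibolone animals, which had the highest mean, had 293, 229.9, 146 and 167. CEE+MPA fell below control by 1.10 ± 0.28 on the log2 scale (adjusted p = 0.0309), while CEE differed by -0.17 ± 0.28 (95% interval -0.75 to 0.42). Of the 3 other genes of the neighbourhood, CCL8 gave -0.47 ± 0.25 and CCL13 -1.22 ± 0.47 for CEE+MPA against control, and CCL1 gave 0.50 ± 0.26; none of these passed the threshold, with adjusted p of 0.259, 0.127 and 0.247.

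A second neighbourhood holds CCL21, CCL19 and CCL27, with no other protein-coding gene between them. It also holds IL11RA, described below, with 1 protein-coding gene between it and CCL27. CCL19 and CCL21 draw naive T cells and dendritic cells through CCR7 and are products of lymphatic and lymphoid stroma, while CCL27 attracts T cells through CCR10 and is best known from skin keratinocytes. CCL27 signals were 1758, 902, 1490.2 and 529 in control and 378, 327, 271 and 269 with CEE+MPA, again without overlap. The CEE+MPA animals lay close together, whereas CEE animals spread from 289 to 1835 and tibolone animals from 662 to 2349. The difference from control with CEE+MPA was -1.73 ± 0.49, 3.32-fold, with an adjusted p of 0.0492. CCL19 had 1104, 776, 512 and 574 in control and 237, 347, 269 and 165 with CEE+MPA, which do not overlap either, and differed by -1.47 ± 0.49 with an adjusted p of 0.0787. For CCL21 the values were 1002, 889.7, 1248 and 638 in control and 416, 327, 192 and 263 with CEE+MPA, and the difference of -1.62 ± 0.57 had an adjusted p of 0.0975. Neither passed the threshold. CCL21 passed without the 4 arrays high in skeletal muscle genes and with only these 2 groups in the model, and its adjusted p ran from 0.013 to 0.215 over the alternatives that kept both spike-in sets.

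CCL3, a macrophage product that attracts monocytes and T cells, had its lowest signals with CEE rather than CEE+MPA. Control animals had 198, 115, 64.8 and 166, CEE animals 18.5, 52.9, 29.4 and 16.5 and CEE+MPA animals 102, 65.0, 63.0 and 45.5. CEE did not overlap control and differed by -1.72 ± 0.36, with an adjusted p of 0.0831, and a second dim probe set did not share the direction (0.15 ± 0.39). For CCL5, a T cell chemokine, the difference of CEE+MPA from control was 0.16 ± 0.29 with a 95% interval of -0.45 to 0.78. CCL25, a thymic and gut chemokine, gave 0.27 ± 0.19 with an interval of -0.13 to 0.66. CCL28, an epithelial chemokine that brings antibody-producing plasma cells to the mammary gland, had 529, 600.1, 2159 and 1380.2 in control, 2123, 874, 1142 and 3290.2 with CEE+MPA and 412, 572, 675 and 759.8 with tibolone. Its difference between CEE+MPA and control was 0.71 ± 0.44 (adjusted p = 0.346), within a spread that was wide in both groups.

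No signalling chemokine receptor was called in any comparison. Of the 6 tested, CXCR3, the receptor for CXCL9 to CXCL11, had 198, 245, 194 and 174 in control and 88.0, 172, 136 and 159 with CEE+MPA, at -0.53 ± 0.20 (adjusted p = 0.118). CXCR4, the receptor for CXCL12, differed by -0.12 ± 0.48 between CEE+MPA and control, with a 95% interval of -1.14 to 0.90. CCR10, the receptor of CCL27 and CCL28, gave -0.07 ± 0.30. CCR6, the receptor for CCL20 on lymphocytes and dendritic cells, was dim and was higher in each of the 4 tibolone animals, at 101, 102, 130.4 and 79.7, than in any control animal, at 50.3, 52.4, 48.8 and 66.2, but the difference of 0.75 ± 0.16 had an adjusted p of 0.237. That was the lowest adjusted p of any chemokine or interleukin for tibolone against control.

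Both tested atypical receptors fell with CEE+MPA. ACKR1, the Duffy antigen, holds chemokines on venular endothelium and red cells. Its main probe set had 2009.9, 2673, 985 and 1446 in control and 789, 552, 599 and 449 with CEE+MPA, without overlap. CEE animals had 1317, 1393, 812 and 676 and tibolone animals 1495, 2295, 1234 and 918, both overlapping control. The CEE+MPA difference was -1.48 ± 0.33, 2.79-fold (adjusted p = 0.0189). A second ACKR1 probe set gave 0.14 ± 0.27 and so did not share the fall. ACKR3 binds CXCL12 and removes it. Control animals had 2356, 3033, 2657 and 2653, CEE animals 1920.2, 1523, 1183 and 1359.7, CEE+MPA animals 2004, 436, 978 and 1304 and tibolone animals 2059, 3185, 2747 and 1353. All CEE and CEE+MPA animals lay below the lowest control animal. The difference of CEE+MPA was -1.36 ± 0.35, 2.56-fold (adjusted p = 0.0355), and that of CEE -0.85 ± 0.35 (adjusted p = 0.353).

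**Figure D2:**
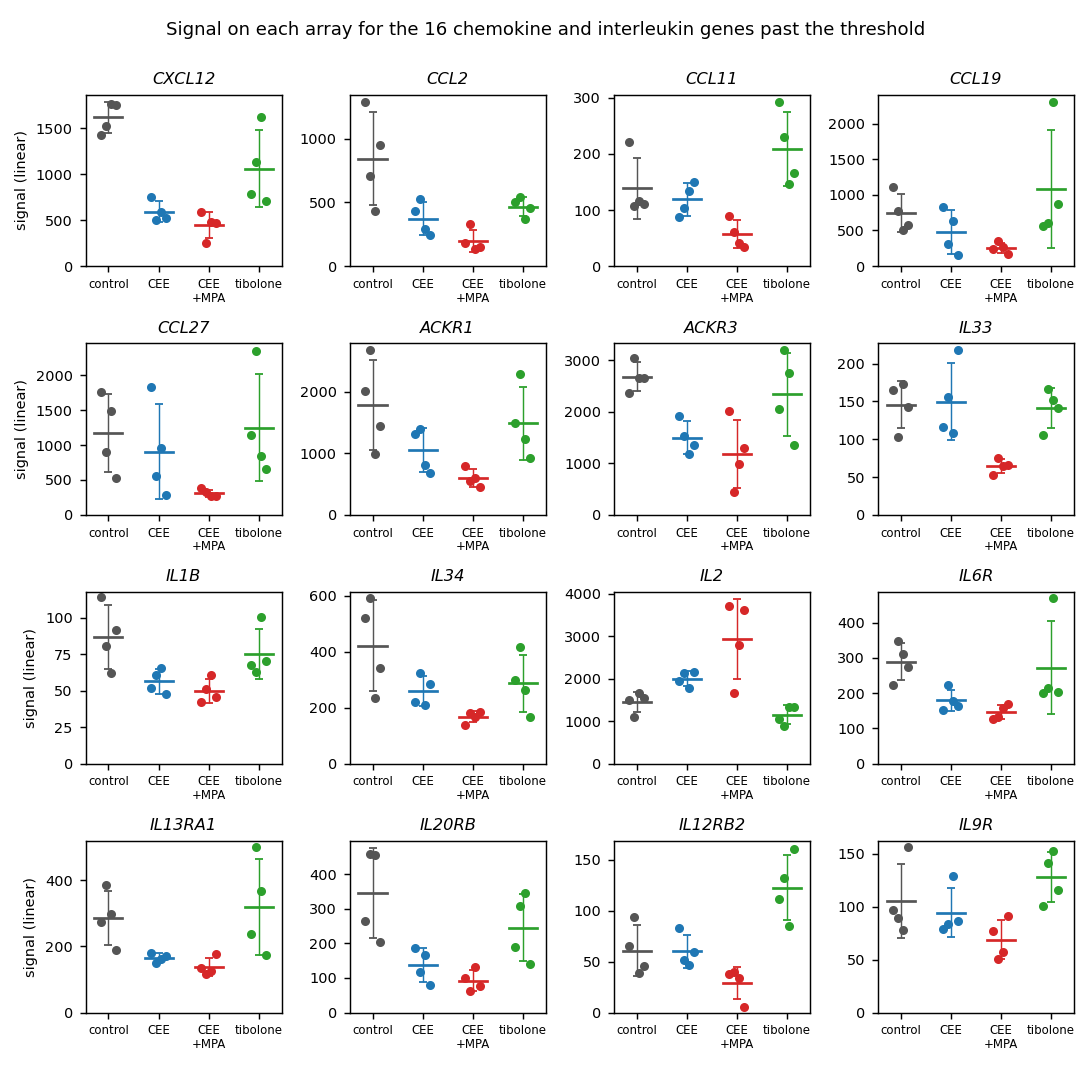
Linear signal (y axis, from 0) on each array by group (x axis) for the 16 genes called in CEE+MPA against control or tibolone against CEE+MPA; points are animals, the long bar is the group mean and the error bar the SD (n = 4). For IL1B, IL2, IL13RA1 and IL12RB2 the called probe set with the smallest p is drawn. CXCL12 lies from 1428 to 1769.7 in control and from 248 to 593 with CEE+MPA, while IL2 is the 1 gene with its highest mean in the CEE+MPA group.

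Of the 15 interleukin ligands tested, IL33, IL34 and IL1B were called lower and IL2 higher with CEE+MPA. IL33 is an alarm signal of the interleukin-1 family stored in the nuclei of endothelial, fibroblast and epithelial cells. It had 165, 103, 173 and 142 in control, 117, 156, 108 and 219 with CEE, 52.9, 75.7, 65.3 and 65.4 with CEE+MPA and 105, 166, 152 and 141 with tibolone. The CEE+MPA animals lay below all others. The difference of CEE+MPA from control was -0.98 ± 0.21 (adjusted p = 0.0153). CEE differed from control by 0.01 ± 0.21 (95% interval -0.42 to 0.45), and CEE+MPA from CEE by -1.0 ± 0.21 (95% interval -1.44 to -0.56). The last of these had an adjusted p of 0.181, the lowest for any chemokine or interleukin between the 2 estrogen groups, and did not pass. Its receptor gene IL1RL1 was not tested.

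IL34 is an alternative ligand of the macrophage growth factor receptor CSF1R. Signals were 520.3, 589.9, 234 and 343 in control and 140.0, 181, 168 and 184 with CEE+MPA, with no overlap, against 221, 325, 211 and 284 with CEE and 299.6, 416, 264 and 167 with tibolone. CEE+MPA differed by -1.17 ± 0.27, 2.25-fold (adjusted p = 0.0243). IL1B, the principal fever-inducing cytokine of macrophages, was dim on all 3 of its probe sets. The called one had 114, 80.4, 62.0 and 91.3 in control and 42.0, 50.9, 61.0 and 45.9 with CEE+MPA, at -0.63 ± 0.17 (adjusted p = 0.0414), and the other 2 had the same sign, at -0.75 ± 0.48 and -0.40 ± 0.39. The brightest IL1B probe set was not the called one, and its adjusted p was 0.371.

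IL2, the T cell growth factor, was called higher with CEE+MPA by 2 probe sets. The brighter had 2838, 2328, 2833 and 2700.2 in control, 3660.2, 3659, 3197 and 4644 with CEE, 4411, 3064, 4560.0 and 5836 with CEE+MPA and 2470.2, 2357, 2640.2 and 3037 with tibolone. On it every CEE and CEE+MPA animal lay above every control and tibolone animal. The other called probe set had 1502, 1106, 1674 and 1542 in control and 3704, 1668, 2795 and 3612 with CEE+MPA, where 1 CEE+MPA animal lay just within the control range. CEE+MPA differed from control by 0.70 ± 0.18 (adjusted p = 0.0309) and 0.96 ± 0.22 (adjusted p = 0.0243). Another probe set named for IL2 lay at 1.54 to 19.1 on all 16 arrays and was not tested. The 2 called probe sets shared their direction, and the other was too dim to be compared with them. IL2RA had no tested probe set. Of 12 markers of T and NK cells, 9 had none either, CD3D, CD3E and CD3G among them. The gene behind the called pair thus remains uncertain.

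No other interleukin ligand was called in this comparison. IL6, a product of fibroblasts and macrophages, varied widely within groups, from 17.7 to 204 in control and 19.7 to 355 with tibolone, and CEE+MPA differed from control by -0.66 ± 0.69 (95% interval -2.13 to 0.81). IL7 and IL15, which sustain lymphocytes, gave -0.20 ± 0.29 and -0.06 ± 0.20. IL16, which attracts cells bearing CD4, had 348, 475, 324 and 327 in control and 261, 138, 186 and 150.1 with CEE+MPA, without overlap, and -0.97 ± 0.35 with an adjusted p of 0.106. IL10, an anti-inflammatory cytokine, gave 0.04 ± 0.17 on a probe set at 751 to 1323 over all arrays, while its second probe set lay at 3.74 to 65.8 and was not tested.

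Among the interleukin receptors IL20RB, IL6R and IL13RA1 fell with CEE+MPA. IL20RB is a shared chain of the receptors for IL-19, IL-20 and IL-24. Control animals had 264, 457, 454 and 204 and CEE+MPA animals 100.1, 61.4, 131 and 77.7, without overlap; CEE animals had 187, 117, 166 and 78.8, also below the control range, and tibolone animals 189.6, 307, 346 and 141. CEE+MPA differed by -1.70 ± 0.33, 3.24-fold (adjusted p = 0.0107), and CEE by -1.22 ± 0.33 (adjusted p = 0.184). IL20RA, the partner chain, differed by -0.12 ± 0.21 with CEE+MPA, with a 95% interval of -0.55 to 0.32.

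IL6R binds IL-6 before the complex engages gp130. It had 224, 347, 311 and 274 in control, 152, 222, 179 and 165 with CEE and 128, 132, 158 and 169.9 with CEE+MPA, and both treated groups lay below control. Tibolone animals had 202, 215, 469 and 202, with 1 animal above all others. The difference of CEE+MPA was -0.90 ± 0.23 (adjusted p = 0.0336); a second, dimmer probe set gave -0.36 ± 0.24. IL13RA1 pairs with IL4R to form the receptor of IL-4 and IL-13 on non-lymphoid cells. Its brightest probe set had 1200.4, 1502, 1429 and 1242 in control and 862, 486, 589.5 and 949.7 with CEE+MPA, without overlap. The 3 IL13RA1 probe sets gave -0.93 ± 0.24, -0.95 ± 0.26 and -0.83 ± 0.30, and the first 2 of these were called (adjusted p = 0.0349 and 0.0435). IL4R gave -0.16 ± 0.21 (95% interval -0.61 to 0.29). IL13RA2, a decoy for IL-13, stood at 45.7 ± 22.2 in control and 173 ± 171 with CEE+MPA, and at 1.28 ± 0.64 its adjusted p was 0.234.

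No other interleukin receptor was called against control. IL10RA, the ligand-binding chain for IL-10, had 426, 544, 462 and 527 in control and 326, 299, 376 and 241 with CEE+MPA, without overlap, and -0.64 ± 0.27 (adjusted p = 0.165); its partner IL10RB gave -0.39 ± 0.17. IL11RA, which binds IL-11, gave -0.44 ± 0.15 (adjusted p = 0.0857), and the CEE+MPA animals lay within 569 to 622. IL2RG, the common gamma chain, gave -0.30 ± 0.34, IL15RA 0.12 ± 0.31, IL17RA -0.32 ± 0.19, IL17RC 0.06 ± 0.31 and IL27RA -0.10 ± 0.29, none of them called. IL1R2, a decoy receptor for interleukin-1, gave 0.12 ± 0.15 on its brightest probe set and -1.62 ± 0.63 on another that was dim outside a few animals. The antagonist IL1RN gave -0.39 ± 0.26.

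By family, the interleukin-1 family had 5 of 17 genes tested on 9 probe sets, of which 2 were lower with CEE+MPA and the median difference from control was -0.63. The common gamma chain family had 7 of 11 genes on 12 probe sets, with 2 higher, both for IL2, and a median of -0.11. The gp130 family had 5 of 6 genes on 9 probe sets, with 1 lower and a median of -0.36, and the interleukin-10 family 5 of 10 genes on 5 probe sets, with 1 lower and a median of -0.39. The interleukin-17 family had 7 of 11 genes on 8 probe sets with 0 called by limma and a median of -0.06, and the interleukin-12 family 3 of 6 genes on 6 probe sets with 0 called and a median of 0.26. Over all tested probe sets 4.38% were called lower and 1.95% higher and the median was -0.01, and with so few probe sets a family 1 call says little.

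Of the 15 calls in CEE+MPA against control, 3 (CXCL12, CCL2 and IL20RB) passed under all 19 alternatives that kept both spike-in sets, and, counting IL33, 4 passed with each of the 8 arrays left out in turn. The other 11 were lost with at least 1 array left out, and the number of calls was 5, 4, 9 and 13 without control replicates 1 to 4, and 9, 6, 4 and 11 without CEE+MPA replicates 1 to 4. Over all 28716 tested probe sets 1819 were called with every array, and 702, 348, 1058 and 1981 without those control replicates. Without those CEE+MPA replicates 1202, 658, 552 and 1748 were called over all. Over the alternatives that kept both spike-in sets the adjusted p ran from 0.00185 to 0.0138 for CXCL12 and from 0.00295 to 0.0319 for CCL2. It ran from 0.00698 to 0.0459 for IL20RB and from 0.0143 to 0.0824 for IL33. IL33 missed the threshold without the 4 arrays high in skeletal muscle genes. The adjusted p reached 0.0746 for ACKR1, 0.0976 for IL34, 0.09 for CCL11, 0.115 for IL6R and 0.11 for ACKR3. It reached 0.133 for CCL27, 0.163 for IL1B, 0.111 and 0.148 for the 2 IL13RA1 probe sets and 0.107 and 0.0926 for those of IL2.

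The spike-in sets taken apart leave 2 animals a group. Within the high set 6 probe sets were called (CXCL12, CCL2, ACKR1, ACKR3, IL34 and 1 of IL13RA1) and within the low set 0. Over all 28716 tested probe sets 1375 were called within the high set and 0 within the low set. In the low set the adjusted p was 0.249 for CXCL12, 0.259 for CCL2 and 0.351 for IL20RB, and IL20RB in the high set had 0.0616. The differences in the high and the low set were -2.04 and -1.71 for CXCL12, -2.09 and -1.87 for CCL2 and -1.77 and -1.62 for IL20RB, close to each other. They lay further apart for ACKR3, at -2.00 and -0.71, ACKR1, at -1.98 and -0.98, IL34, at -1.58 and -0.76, and the brightest IL13RA1 probe set, at -1.30 and -0.55. In the opposite order, IL33 gave -0.76 and -1.21. Each of these kept its sign in both sets, and whether the sets differ was not tested.

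**Figure D3:**
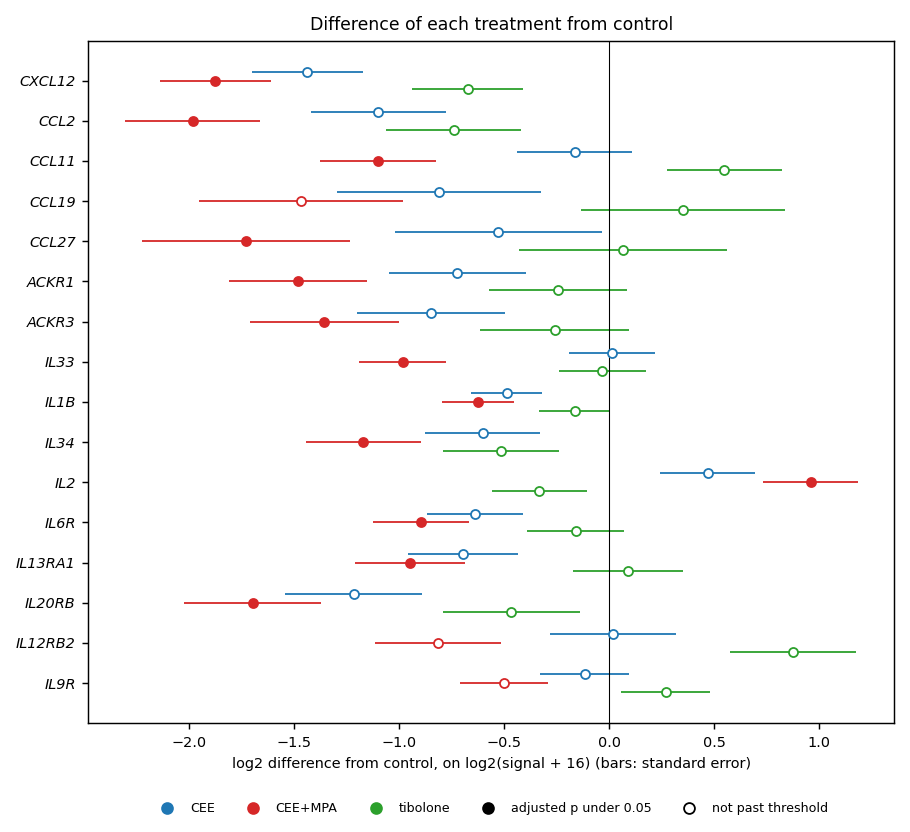
Log2 difference from control on log2(signal + 16) (x axis) with its standard error from the model, for CEE, CEE+MPA and tibolone (4 animals each), in the 16 genes (y axis) called in CEE+MPA against control or tibolone against CEE+MPA. Filled points passed an adjusted p of 0.05; CXCL12 stands at -1.44, -1.88 and -0.67, and IL33 at 0.01, -0.98 and -0.03.

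Set side by side, the differences from control with CEE alone and with CEE+MPA can be read for some of the called genes. CXCL12, at -1.44 and -1.88, IL20RB, at -1.22 and -1.70, and IL6R, at -0.64 and -0.90, had values for CEE alone near those of the combined group. IL33, at 0.01 and -0.98, and CCL11, at -0.17 and -1.10, had values for CEE alone near 0. CCL2 and ACKR3, whose values are given above, lay between these cases, so the called genes do not fall into clear classes. The 2 values of each gene share the control animals. The direct test of CEE+MPA against CEE called none of these genes: the differences were -0.44 ± 0.26 for CXCL12 (adjusted p = 0.724), -0.88 ± 0.32 for CCL2 (adjusted p = 0.513), -0.94 ± 0.28 for CCL11 (adjusted p = 0.399) and -1.0 ± 0.21 for IL33 (adjusted p = 0.181). CXCL12 with CEE alone passed in 6 of 19 alternatives that kept both spike-in sets, its adjusted p running from 0.0139 to 0.234; within the high and the low set alone it was 0.223 and 0.549.

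Tibolone against CEE+MPA was the other comparison with calls. CCL11 was higher in every tibolone animal than in any CEE+MPA animal, at 1.65 ± 0.28, 3.14-fold (adjusted p = 0.00732). IL33 differed by 0.95 ± 0.21 (adjusted p = 0.0219), CXCL12 by 1.20 ± 0.26 (adjusted p = 0.0223) and CCL2 by 1.24 ± 0.32 (adjusted p = 0.0369). ACKR1, IL20RB, 1 of the IL13RA1 probe sets, CCL27 and CCL19 were also higher with tibolone, at 1.24 ± 0.33, 1.23 ± 0.33, 1.04 ± 0.26, 1.79 ± 0.49 and 1.82 ± 0.49, with adjusted p between 0.0342 and 0.0442. The brightest IL13RA1 probe set was not called, at 0.83 ± 0.24 (adjusted p = 0.051). In a model with a term for spike-in set, 5 of the 13 calls were kept, for CCL11, IL33, CXCL12, IL12RB2 and 1 of IL2. That model also newly called the brightest IL13RA1 probe set (adjusted p = 0.0354) and ACKR3 (adjusted p = 0.0491). CCL2, ACKR1, IL20RB, CCL27 and CCL19 then had adjusted p of 0.0761, 0.0788, 0.0745, 0.0762 and 0.0923. IL2 was lower, at -1.29 ± 0.22 (adjusted p = 0.00918) and -0.73 ± 0.18 (adjusted p = 0.0296). For the genes called in both comparisons the low, or for IL2 the high, group is the same set of 4 CEE+MPA arrays.

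CCL19, described above, IL9R and IL12RB2 were called here and not against control. IL9R, a receptor of mast cells and T cells, had 76.6, 50.1, 57.6 and 91.2 with CEE+MPA and 101, 141, 153 and 116 with tibolone, at 0.77 ± 0.21 (adjusted p = 0.0434), and its second probe set gave 0.05 ± 0.18. IL12RB2 is a chain of the IL-12 receptor. The called probe set was its dimmest, with 37.4, 39.8, 33.7 and 5.07 with CEE+MPA and 111, 132, 85.4 and 161 with tibolone, at 1.69 ± 0.30 (adjusted p = 0.00997). The 3 brighter IL12RB2 probe sets had the opposite sign, at -0.14 ± 0.24, -0.28 ± 0.24 and -0.37 ± 0.22, so the gene has no settled direction.

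CCL28 signals lay lower in all 4 tibolone animals than in any CEE animal, whose values were 1744, 1350.0, 962 and 1201, at -1.10 ± 0.44 (95% interval -2.03 to -0.17; adjusted p = 0.354), and also below all 4 CEE+MPA animals, at -1.44 ± 0.44 (adjusted p = 0.0608). Neither difference passed, and that from CEE+MPA was -0.86 in the model with a term for spike-in set and -0.74 within the high set. Another tested CCL28 probe set gave -0.04 for tibolone against control, where the one described here gave -0.73. IL17REL, a dim receptor-like gene, had 49.2, 80.0, 68.4 and 59.4 with CEE+MPA and 23.5, 23.7, 73.3 and 24.5 with tibolone, at -0.70 ± 0.23 (adjusted p = 0.073). Without tibolone replicate 3, the 1 high animal of its group, it passed, at an adjusted p of 0.0118, the lowest of its alternatives, which ran up to 0.192.

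Most calls of tibolone against CEE+MPA depended on which arrays were in the model. Leaving out the 4 arrays high in skeletal muscle genes left 0 calls, where 2 tibolone animals and 3 CEE+MPA animals remained. Over all 28716 tested probe sets 0 were called there too. Of the 13 probe sets, 3 (CCL11, 1 of IL2 and the dim IL12RB2) passed with every single array left out. The number of calls was 5, 8, 4 and 8 without CEE+MPA replicates 1 to 4, and 9, 3, 4 and 24 without tibolone replicates 1 to 4. Over all tested probe sets 1820 were called with every array, and 723, 843, 413 and 1040 without those CEE+MPA replicates. Without those tibolone replicates 1393, 209, 295 and 3333 were called over all. Over the alternatives other than the split by spike-in set the adjusted p ran from 0.00501 to 0.0631 for CCL11, from 0.00836 to 0.311 for CXCL12, from 0.0182 to 0.448 for IL33 and from 0.0255 to 0.366 for CCL2. All 4 tibolone arrays belong to the high spike-in set. Against the 2 CEE+MPA arrays of that set alone 5 probe sets were called, beside 564 over all tested probe sets. The adjusted p was there 0.0317 for CCL11 and 0.0411 for CXCL12.

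Tibolone replicate 3 stood apart from all other arrays for 7 of these genes. It had the highest signal of all 16 arrays for 24 of the 101 probe sets, 23.8%, against 11.5% of all tested probe sets. On that array 9 probe sets of 7 genes exceeded the next highest array more than 2-fold, and on each other array 0 did; over all tested probe sets 0.909% did so on that array and at most 0.146% on any other. CXCL13, which draws B cells into follicles, had 2978, next to 109.7 on the following array, and a second probe set gave 2849; the remaining tested one, at 24.3 to 109.8, did not rise there. CCL21 had 6366, next to 1248, and CCL19 had 2300.1, next to 1104. Their receptor CCR7 had 472, next to 124. CXCR4 had 1491, IL2RG 1842 and IL16 983. These 7 genes serve the homing and growth of lymphocytes.

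**Figure D4:**
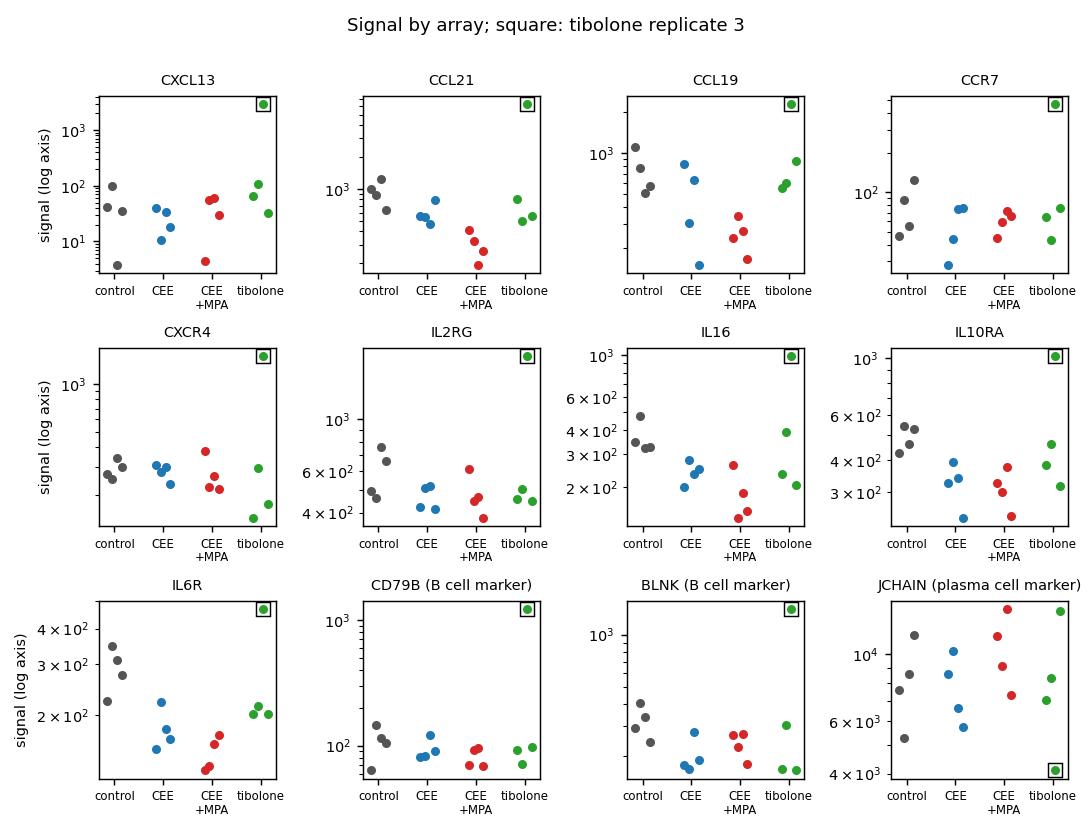
Signal (log y axis) on each array by group (x axis) for 9 chemokine, interleukin and receptor genes and 3 lymphocyte markers; each point is 1 animal and the square marks tibolone replicate 3. That array is the highest of the 16 for the 9 genes and for CD79B and BLNK, and the lowest for JCHAIN.

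Other cell type markers on the same array also stood apart. CD79B had 1229, against 63.5 to 146 on the other 15 arrays, and BLNK 1410.0, against 165 to 403. Of the plasma cell genes, JCHAIN had 4100.3, against 5244 to 14174, while MZB1, at 779, and TNFRSF17, at 136, lay within the range of the other arrays. The B and plasma cell list had 5 of 9 genes tested, with MS4A1 and CD79A among those without a tested probe set, and its mean was 0.70 on this array, the highest of the 16. The T and NK cell list, with 3 of 12 tested, stood at 0.16 and the myeloid list at 0.48. Of the T and NK genes CD8A, at 600, was at its highest, while NKG7 and GZMA lay within the range of the other arrays. Of the myeloid genes CSF1R, C1QA, C1QB and AIF1 were at their highest, while CD14, at 1692, was at its lowest. The remaining myeloid genes lay within the range of the other arrays. The array also had the lowest luminal epithelial mean of the 16, at -0.27, and the highest adipocyte mean, at 1.27. Of the luminal genes, KRT19, EPCAM and ELF5 were each at their lowest there, while KRT18, at 958, was at its highest. FOXA1, at 1851, GATA3, KRT8 and CLDN4 lay within the range of the other arrays. The part of these cells in the result was not tested. Without this array the difference of tibolone from control was -0.58 ± 0.27 for CCL21 and -0.09 ± 0.45 for CCL19, where all 4 animals gave 0.26 ± 0.57 and 0.35 ± 0.49, and 0.64 ± 0.54 for CXCL13, where all 4 gave 1.96 ± 0.94. The signs of CCL21 and CCL19 turned, and no value passed the threshold either way. CCL19 in tibolone against CEE+MPA went from an adjusted p of 0.0401 to 0.115 without it.

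Other genes of cytokine and chemokine signalling were counted from a list of 83, of which 45 were tested. With CEE+MPA against control 5 were higher and 3 lower, where 1.95% and 4.38% of all tested probe sets were. In tibolone against CEE+MPA 4 were higher and 3 lower, where 3.78% and 2.56% of all were. In the other 4 comparisons 0 were called by limma. STAT5A and STAT5B, the STAT factors of prolactin, IL-2 and IL-7 signalling, were higher with CEE+MPA by 1.71 ± 0.33 (adjusted p = 0.0107) and 1.31 ± 0.27 (adjusted p = 0.014), and their target CISH by 1.83 ± 0.39 (adjusted p = 0.0157). IRAK1, a kinase below interleukin-1 receptors, and the TNF receptor TNFRSF1B were the other 2. JAK2 was lower by 0.99 ± 0.22 (adjusted p = 0.0213), the oncostatin M receptor OSMR by 1.46 ± 0.36 (adjusted p = 0.0293) and the chemoattractant precursor RARRES2 by 1.59 ± 0.23 (adjusted p = 0.00304). In tibolone against CEE+MPA the higher genes were JAK2, RARRES2, the inhibitor SOCS1 and IL6ST, which encodes gp130, and the lower ones STAT5A, STAT5B and TNFRSF1B.

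Markers of several cell types moved with the same comparison. With CEE+MPA against control all 5 tested smooth muscle genes of 7 were lower, with a median of -1.28, and 3 of 7 tested fibroblast genes of 8 (DPT, OGN and LUM), with a median of -0.42. Over all tested probe sets 4.38% were called lower and 1.95% higher. The basal and myoepithelial list, which shares MYH11 with the smooth muscle list, had 1 lower of 3 tested, with a median of -0.68. Its centred mean was -0.10 to 0.53 in control and -0.94 to -0.37 with CEE+MPA, without overlap. The myeloid list had 1 lower of 10 tested (MS4A7, median -0.69), the endothelial list 1 of 7 (ERG, median -0.48), and the luminal list 1 higher of 8 (KRT19, median -0.10). The summed signal of the fibroblast genes ran from 43684 to 54366 in control and from 28016 to 41601 with CEE+MPA, that of the smooth muscle genes from 10321 to 16147 and from 3688 to 8202, and that of the myeloid genes from 33350.1 to 38515 and from 34593 to 41410.0. The myeloid sum is mostly LYZ, at 19163 to 28253 over all arrays. The centred mean of the same 10 genes was 0.22 to 0.53 in control and -0.22 to 0.00 with CEE+MPA, without overlap. The genes of that list did not all move together. CD14 lay wholly higher, at 3456 to 6452 in control and 6625 to 9415 with CEE+MPA, and was not called. The endothelial sums were 6573 to 8989 and 4739 to 5743. For T and NK cells 0 of 3 tested genes were called (median -0.36), for B and plasma cells 0 of 5 (median -0.31), and for neutrophils and mast cells 0 of 4 (median -1.19). With CEE alone none of these lists had a called gene, while the medians were -0.41 for fibroblasts, -0.68 for myeloid cells and -0.47 for smooth muscle. The part of tissue makeup in the chemokine and interleukin differences was not tested.

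**Figure D5:**
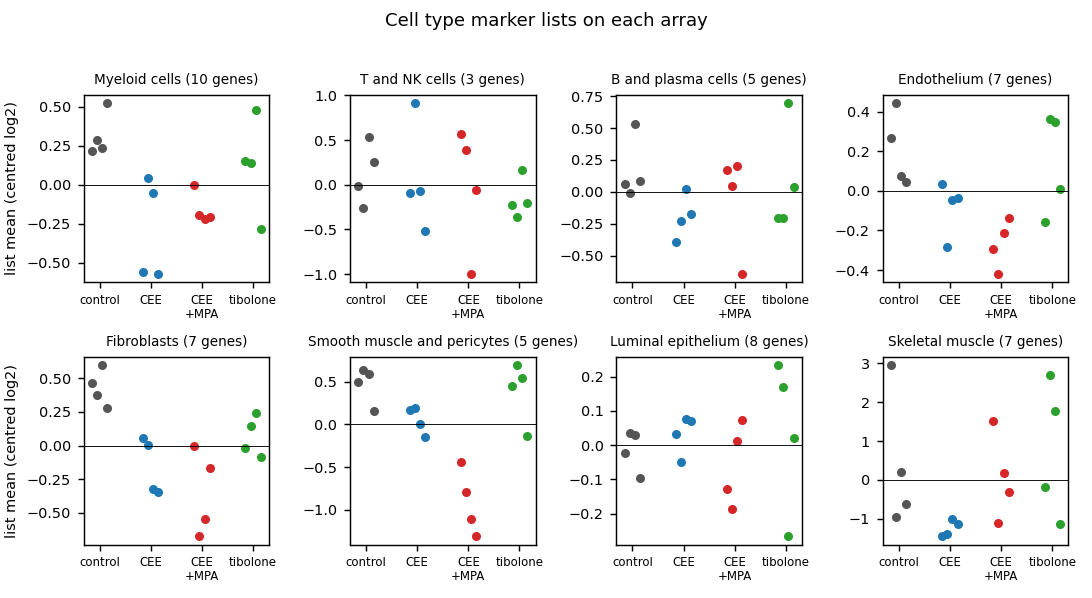
Mean over the tested genes of each marker list, each gene centred on its mean log2(signal + 16) over the 16 arrays (y axis), for each animal by group (x axis). The fibroblast mean runs from 0.28 to 0.60 in control and from -0.67 to -0.01 with CEE+MPA, the smooth muscle mean from 0.15 to 0.64 and from -1.31 to -0.44, and the skeletal muscle mean exceeds 1 on 4 arrays.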

How the data were processed

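The deposited values are linear signal intensity per probe set, which the authors scaled so that each array has the same mean after trimming 2% at each end (250.01 to 250.02). The submitters' processing notes name GCOS and Affymetrix Expression Console; for the summary algorithm, versions and genome build, this is not given in the sources used here. Arrays have no read depth, and 4 animals per group limit the precision.

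Of 52865 probe sets, 99 Affymetrix controls were left out. Signals were transformed as log2(signal + 16) and fitted with limma 3.58.1 in R 4.3.3 (12 residual degrees of freedom), with 6 contrasts of 4 group means and an F test, and the model was tested on simulated data. Replicate numbers follow the order of deposit. Probes were designed for the rhesus macaque; 113 of 115 symbols were found in the cynomolgus RefSeq table (T2T-MFA8v1.1), used only for names and gene order. Sequences are not printed. Where a gene has several tested probe sets, the brightest (by mean log2 signal) stands for it unless said otherwise.

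The genes and lists were chosen with earlier results of these data known. Named were the called genes (at most 12 per direction), the 3 with the smallest p where fewer than 3 passed, the 6 brightest ligands and the 6 brightest receptors, and a panel of 63 genes (52 among those studied, 42 tested); CCL8, CCL13, CCL1 and IL37 were named after their values were seen. Alternatives were quantile normalization, median centring, no filter or a filter at the 75th percentile, other offsets (1 or 64), a trended prior, the spike-in sets as a block or split, a skeletal muscle covariate, only the groups compared and each array left out. Leaving out the 4 arrays high in skeletal muscle genes was added after seeing the data.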

Additional observations from a re-analysis of the deposited data

Results flagged for a closer look

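In each group of 4 animals an array was looked for that lay far from the other 3, over 55 probe sets of the named genes and 220 groups, and 14 groups held one; chance alone gives about 1 in 20. Tibolone replicate 3 held 4 of the 14, with IL2RG at 1842 against 449 to 506 in the other 3 tibolone animals, IL6R at 469 against 202 to 215, CX3CL1 at 81.5 against 62.2 to 64.7 and IL17REL at 73.3 against 23.5 to 24.5. In the control group CCL11 stood high on replicate 1, at 221 against 108 to 117, and IL15RA low on replicate 2, at 175 against 307 to 319. In the CEE group CXCL9 stood high on replicate 1, at 61.0 against 18.9 to 21.8, and IL15 on replicate 2, at 239 against 166 to 176. In the CEE+MPA group CXCL16 stood high on replicate 1, at 105 against 82.6 to 84.5, CX3CL1 on replicate 3, at 78.0 against 55.0 to 58.0, and the brightest IL12RB2 probe set on replicate 3, at 1762 against 1240.4 to 1267. Replicate 4 of that group was low for IL27RA, at 248 against 300.3 to 312, and for the dimmest IL12RB2 probe set, at 5.07 against 33.7 to 39.8. The brightest IL12RB2 probe set was also high on tibolone replicate 2, at 1339 against 1205 to 1225.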

How the results depend on the processing

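No paired analysis was possible because no animal was in more than 1 group and replicate numbers only follow the order of deposit. For single genes, 312 differences were recomputed under 6268 alternatives in all. Of the alternatives, 5991 kept their side of the threshold, 241 lost it, 36 gained it and 0 turned sign with either value past it. A change of sign between values that both missed the threshold was counted as kept. The 15 calls of CEE+MPA against control became 9 with quantile normalization (9 of the 15 kept), 9 with no filter (7 kept), 6 within the high and 0 within the low spike-in set, and 4 to 13 with 1 array left out. Over all tested probe sets the 1819 calls became 1323, 984 (of 52766), 1375 and 0 in those settings. They became 348 to 1981 with 1 array left out. The 13 calls of tibolone against CEE+MPA became 7 with quantile normalization (6 of the 13 kept), 6 with no filter (5 kept), 7 with the spike-in block (5 kept), 6 with the skeletal muscle covariate, 2 with only the groups compared, 5 within the high spike-in set, 0 without the 4 arrays high in skeletal muscle genes, and 3 to 24 with 1 array left out. Over all tested probe sets the 1820 calls became 1301, 799 (of 52766), 735, 816, 215, 564 and 0 in those settings. They became 209 to 3333 with 1 array left out. CEE against control rose from 0 to 1 call, CXCL12, with the 75th percentile filter, an offset of 64, a trended prior, the spike-in block, only the groups compared, or without those 4 arrays. The 8 calls across the 4 groups became 2 without those 4 arrays and 1 to 16 with 1 array left out. Over all tested probe sets the 867 calls of that test became 112 and 182 to 2123. The causes were not tested. The other 3 comparisons stayed at 0 calls in the alternatives run. Dim genes near the filter, such as IL1B, CCR6 and the called IL12RB2 probe set, are limited by signal over background.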
